A study of Mus musculus with 5 samples.

Results

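The cells described here are Lcn2-high activated alveolar epithelial type 2 (AT2) cells, taken from single-cell RNA sequencing of mouse lungs after intratracheal lipopolysaccharide (LPS). They were chosen by rule. A barcode had at least 700 genes and 0.1 to 15% mitochondrial UMIs (unique molecular identifiers, which count RNA molecules), and at least 5% of its UMIs came from Sftpc, the surfactant protein C gene of AT2 cells. At least 3 of the 6 AT2 genes Lamp3, Slc34a2, Etv5, Lpcat1, Napsa and Epcam were detected. The endothelial and fibroblast genes Cdh5, Pecam1 and Col1a2 had at most 1 UMI together, and the ciliated, leukocyte and transitional genes Foxj1, Ptprc and Cldn4 had none. Of the AT2 cells of this gate, those with at least 10 Lcn2 UMIs per 10000 UMIs of the cell were called Lcn2-high and the others Lcn2-low. The gate held 2449 of 29500 cells, of which 1666 were Lcn2-high and 783 were Lcn2-low.

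The mice carried an SP-C rtTA TetO-Cre system and floxed Itgb1, the gene of the β1 integrin subunit. Cre is thus driven in cells that use the surfactant protein C promoter, and doxycycline given for a month deleted Itgb1 in the β1 AT2-KO mice. Their littermate β1 fl/fl controls carried the floxed alleles without the transgenes and received doxycycline as well. After a month off doxycycline, mice of about 3 months received a single dose of LPS or, in 1 group, PBS. The 5 libraries are LPS-treated β1 fl/fl and β1 AT2-KO lungs at 7 days, PBS-treated β1 AT2-KO lungs at 7 days, and LPS-treated β1 fl/fl and β1 AT2-KO lungs at 21 days. All were sorted as viable CD45- Ter119- cells, and the day 21 libraries were enriched for EPCAM+ epithelial cells as well. A PBS-treated β1 fl/fl library is not analysed here. Each group is 1 library of pooled mice, so library and condition cannot be told apart. Each library had 3 hashtag antibodies in use, and the cells of a hashtag are called a mouse here and serve as a replicate, although the labels do not tie hashtags to mice. The libraries held 2224 to 8671 cells, with a median of 2219 to 5330 UMIs per cell, and 452 barcodes were shared between pairs of libraries, 2 of them by cells of the gate.

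AT2 cells make surfactant, store it in lamellar bodies, and act as progenitors that give rise to the thin alveolar type 1 (AT1) cells after injury. They also take part in innate defence. Inflammatory signals such as LPS, IL-1 and IL-6 family cytokines induce acute phase and antimicrobial proteins in epithelia through NF-kB, STAT3 and C/EBP transcription factors. Lcn2 encodes lipocalin-2, which binds bacterial siderophores and so keeps iron from microbes. Lrg1 encodes a secreted leucine-rich glycoprotein of the acute phase response, and Il33 encodes a nuclear cytokine of the IL-1 family that acts as an alarmin when it is released from damaged cells. Lrg1 and Il33 were named with the cells as their markers, on earlier results of these data.

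The 250 bases before the start site of Lcn2, Lrg1 and Il33 and of 2 secreted defence genes, Chil1 and Slpi, are shown because these genes carry the comparison of Lcn2-high with Lcn2-low cells below. The sequences are from RefSeq on GRCm38.p6, 5′ to 3′ on the strand of the gene, and capitals mark a match to an NF-kB (GGGA, any 4 bases, then CC), STAT (TTCNNNGAA) or C/EBP (TTGCNNAA) letter pattern, searched on both strands.
Lcn2, chr2:32387740-32387989, minus strand: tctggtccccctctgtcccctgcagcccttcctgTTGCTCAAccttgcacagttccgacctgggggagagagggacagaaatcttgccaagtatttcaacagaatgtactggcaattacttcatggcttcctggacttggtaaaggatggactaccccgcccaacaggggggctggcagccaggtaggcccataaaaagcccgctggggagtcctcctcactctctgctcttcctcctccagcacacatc
Lrg1, chr17:56121947-56122196, minus strand: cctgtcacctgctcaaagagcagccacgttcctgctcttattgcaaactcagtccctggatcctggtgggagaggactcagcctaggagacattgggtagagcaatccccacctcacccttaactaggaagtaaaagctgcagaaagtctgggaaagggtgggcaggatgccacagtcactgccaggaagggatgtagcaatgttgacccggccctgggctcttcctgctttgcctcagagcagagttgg
Il33, start of a longer transcript, chr19:29924863-29925112, plus strand: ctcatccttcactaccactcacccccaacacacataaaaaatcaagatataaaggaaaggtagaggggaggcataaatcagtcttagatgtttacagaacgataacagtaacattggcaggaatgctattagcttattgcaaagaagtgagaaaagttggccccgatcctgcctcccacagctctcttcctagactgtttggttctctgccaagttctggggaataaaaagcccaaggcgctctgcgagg
Il33, start further downstream, chr19:29945540-29945789, plus strand: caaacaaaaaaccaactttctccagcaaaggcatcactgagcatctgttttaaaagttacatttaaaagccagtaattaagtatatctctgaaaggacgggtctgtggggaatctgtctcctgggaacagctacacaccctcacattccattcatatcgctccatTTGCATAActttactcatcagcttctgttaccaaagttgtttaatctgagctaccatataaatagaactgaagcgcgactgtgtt
Chil1, chr1:134181906-134182155, plus strand: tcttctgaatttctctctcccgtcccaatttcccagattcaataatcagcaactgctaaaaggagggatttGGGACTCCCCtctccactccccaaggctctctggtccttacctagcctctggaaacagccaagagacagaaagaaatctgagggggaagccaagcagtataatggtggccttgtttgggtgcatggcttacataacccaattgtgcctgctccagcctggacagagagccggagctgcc
Slpi, chr2:164356508-164356757, minus strand: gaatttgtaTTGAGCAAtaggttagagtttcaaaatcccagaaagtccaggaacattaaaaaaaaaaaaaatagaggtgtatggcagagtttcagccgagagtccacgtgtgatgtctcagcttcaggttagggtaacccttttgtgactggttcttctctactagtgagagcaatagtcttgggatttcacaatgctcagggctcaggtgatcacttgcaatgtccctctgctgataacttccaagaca
The Lcn2 window held a C/EBP pattern 216 bases before the start, the downstream Il33 window held one at 85 bases, and the Slpi window held one on the reverse strand at 241 bases. The Chil1 window held an NF-kB pattern at 179 bases. No pattern was found in the windows of Lrg1 and of the upstream Il33 start, which says only that these letters are not there. Of all 32851 promoters of this length, 17.6% held the NF-kB, 7.02% the STAT and 9.56% the C/EBP pattern. Counted by gene, with all starts of a gene together, the shares were 19.7, 8.13 and 10.8% of 27025 genes. Of the 12 genes with the largest rises in Lcn2-high cells and Il33, 11 had a promoter in the table, and 6 of these (C3, Cd302, Dmkn, Il33, Retnla and Slpi) held the C/EBP pattern, 3 (C3, Chil1 and Dmkn) the NF-kB pattern and 1 (Itih4) the STAT pattern. Of the 8 genes with the largest falls, 6 had a promoter, of which 3 (Lgals3, Nr1d2 and Sec14l3) held the NF-kB pattern and 0 either of the others. These counts describe the windows and were not tested.

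Lcn2-high cells were found in every library, PBS included. They were 154 of 202 gated cells (76.2%, exact binomial 95% interval 69.8 to 81.9) in day 7 LPS-treated β1 fl/fl lungs and 354 of 499 (70.9%, 66.7 to 74.9) in day 7 LPS-treated β1 AT2-KO lungs. In PBS-treated β1 AT2-KO lungs they were 21 of 37 (56.8%, 39.5 to 72.9). At day 21 they were 112 of 232 (48.3%, 41.7 to 54.9) in β1 fl/fl and 1025 of 1479 (69.3%, 66.9 to 71.6) in β1 AT2-KO lungs, so that this last library gave most of the Lcn2-high cells. These intervals cover counting error only, not differences between mice. The median Lcn2 level of gated cells was 24.7, 19.5, 11.3, 9.09 and 16.2 UMIs per 10000 in the same order. The level of 10 cuts a continuous range: 295 gated cells (12.05%) lay between 8 and 12, and the members nearest the level on its 2 sides were at 10.0 and 9.99 in the day 21 β1 AT2-KO library. Between 91.9% and 98.5% of gated cells had a Lcn2 UMI, so the Lcn2-low cells are cells with less Lcn2 rather than none, and 3 to 48 gated cells per library had no Lcn2 UMI.

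**Figure D1:**
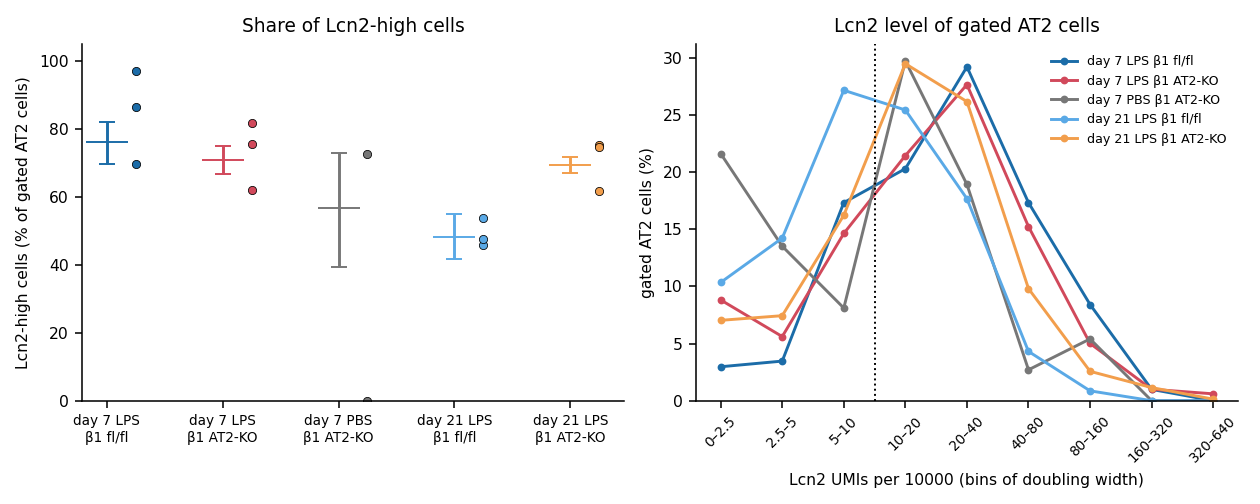
The left panel gives the percentage of gated AT2 cells that were Lcn2-high in each of the 5 libraries (bars are exact binomial 95% intervals, dots are mice), and the right panel the percentage of gated cells by Lcn2 level in UMIs per 10000, with the level of 10 dotted. The day 21 β1 fl/fl library had the lowest share at 48.3% and its 3 mice lay below the 3 mice of the day 21 β1 AT2-KO library.

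By mouse, the Lcn2-high share was 69.6, 86.5 and 96.9% in day 7 LPS-treated β1 fl/fl lungs and 61.9, 75.4 and 81.7% in day 7 LPS-treated β1 AT2-KO lungs. The 2 sets of mice overlapped. The means were 84.3 ± 13.8% (SD, n = 3) and 73.0 ± 10.1% (SD, n = 3), a difference of -11.3 percentage points (exact permutation test, two-sided, p = 0.4, where 0.1 is the smallest this design allows). At day 21 the share was 45.8, 47.7 and 53.75% in β1 fl/fl mice and 75.2, 61.8 and 74.6% in β1 AT2-KO mice. All β1 AT2-KO mice lay above all β1 fl/fl mice, with means of 70.5 ± 7.57% and 49.1 ± 4.13% and a difference of 21.4 points (exact permutation test, two-sided, p = 0.1, the smallest possible, and 0.3 after Benjamini-Hochberg adjustment over 3 comparisons). This difference fell to 6.84 points (exact permutation p = 0.2) when each cell was thinned to 2000 UMIs, and it was 10.0 at a Lcn2 level of 5 per 10000 and 20.0 at a level of 20. The PBS library had 0 of 8, 2 of 2 and 8 of 11 gated cells Lcn2-high in its 3 mice, too few cells to place a share. Its mean over the 2 mice with at least 5 gated cells was 36.4 ± 51.4%, and the difference from day 7 LPS-treated β1 AT2-KO mice was 36.6 points (exact permutation p = 0.4, where 0.2 is the smallest possible). Without the PBS-treated mouse with 0 Lcn2-high cells it was 0.28 points.

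Sftpc was used by the gate and so cannot check that the cells were AT2 cells. Sftpa1 and Sftpb, both surfactant genes outside the gate, were abundant, at 30662 and 11741 CPM (UMIs per 1000000) in Lcn2-high cells. Lcn2 UMIs in endothelial cells of the same libraries, taken as a cell type with little of the gene, were on average 0.461, 0.660, 0.0546, 0.247 and 1.70 per 10000, and 0.732 to 29.1% of these cells had a Lcn2 UMI. At least 10 per 10000 was reached by 0.0385 to 0.768% of the endothelial cells in 4 libraries and by 4.40% in the day 21 β1 AT2-KO library. Lcn2-high cells were deeper than Lcn2-low cells in every library, with median UMIs of 9050 against 6619, 7694 against 6006, 11195 against 6722, 11656 against 9498 and 8606 against 7175 in the order above. They also gave a larger share of their UMIs to Sftpc in every library, by medians of 18.2 to 25.9% against 15.1 to 19.9%. The part of depth and of Sftpc in the results that follow was not tested as a cause.

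Lcn2-high and Lcn2-low cells were compared within mice, with UMIs summed per mouse and class in 11 mice (2 day 7 β1 fl/fl, 3 day 7 β1 AT2-KO, 3 day 21 β1 fl/fl and 3 day 21 β1 AT2-KO, all LPS-treated). The third day 7 β1 fl/fl mouse had 1 Lcn2-low cell and was left out, as were all PBS-treated mice. Of 6160 genes tested, 336 were higher and 260 lower in Lcn2-high cells (edgeR quasi-likelihood test with mouse as a block, adjusted p at or below 0.05), which is 9.68% of the genes. Levels are CPM, and changes are log2 fold changes of Lcn2-high over Lcn2-low cells. Over all genes the median change was -0.01. The count was 161 of 1761 genes tested with cells thinned to 2000 UMIs, and it was 115 of 5134 without the day 21 β1 AT2-KO library, which holds most of the cells. The Lcn2 of a cell and its other genes share 1 UMI total.

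Lrg1 was the most clearly raised gene of the acute phase list. In Lcn2-high cells it stood at 1301, 1659 and 2186 CPM in the 3 day 7 β1 fl/fl mice, 1587, 1397 and 1774 in day 7 β1 AT2-KO, 928, 1054 and 1245 in day 21 β1 fl/fl and 1650, 1744 and 1760 in day 21 β1 AT2-KO mice. In Lcn2-low cells it stood at 160 and 560 CPM in 2 of the day 7 β1 fl/fl mice, 144, 75.9 and 731 in day 7 β1 AT2-KO, 451, 372 and 369 in day 21 β1 fl/fl and 352, 414 and 469 in day 21 β1 AT2-KO mice. The 2 ranges did not overlap, and Lrg1 was higher in 11 of 11 mice, by a log2 fold change of 2.16 (SE 0.137, edgeR adjusted p = 4.14e-18), or 4.48-fold. In cells thinned to 2000 UMIs, 57.1 to 73.7% of Lcn2-high, 26.5 to 38.2% of Lcn2-low and 10.2 to 22.5% of endothelial cells had a Lrg1 UMI. The endothelial share was 22.5% in the PBS library, with 37 gated AT2 cells, and 15.7% in the day 21 β1 AT2-KO library, with 1479. Whether it was RNA of the endothelial cells themselves or free RNA was not tested. Lrg1 (ENSMUSG00000037095) lies at chr17:56119678-56122001 on GRCm38, and Lcn2 (ENSMUSG00000026822) at chr2:32384633-32388252.

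Il33 rose less and was rarer in endothelial cells. It stood at 445, 328 and 749 CPM in Lcn2-high cells of day 7 β1 fl/fl mice, 577, 496 and 609 in day 7 β1 AT2-KO, 713, 572 and 740 in day 21 β1 fl/fl and 1335, 1177 and 1277 in day 21 β1 AT2-KO mice. Lcn2-low cells of the same groups had 193 and 204, then 189, 169 and 375, then 416, 301 and 539, and then 586, 752 and 763 CPM. Across groups the classes overlapped, since Lcn2-low cells of the day 21 β1 AT2-KO mice had more Il33 than Lcn2-high cells of most day 7 mice, but within each mouse the Lcn2-high class was higher. The log2 fold change was 1.01 (SE 0.0936, edgeR adjusted p = 4.1e-12, higher in 11 of 11 mice), or 2.02-fold. Endothelial cells had a Il33 UMI in 0.384 to 8.83% of cells at 2000 UMIs. In β1 fl/fl libraries 52.3% of Lcn2-high and 43.75% of Lcn2-low cells had one at day 7, and 59.1 and 57.6% at day 21. In LPS-treated β1 AT2-KO libraries it was 60 and 41.9% at day 7 and 77.8 and 61.8% at day 21. The PBS library had the reverse order, at 33.3 and 43.75%. Il33 (ENSMUSG00000024810) lies at chr19:29925114-29960718. Of the other members of the IL-1 family list, 6 were tested and 0 passed, where 9.68% of all genes did.

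**Figure D2:**
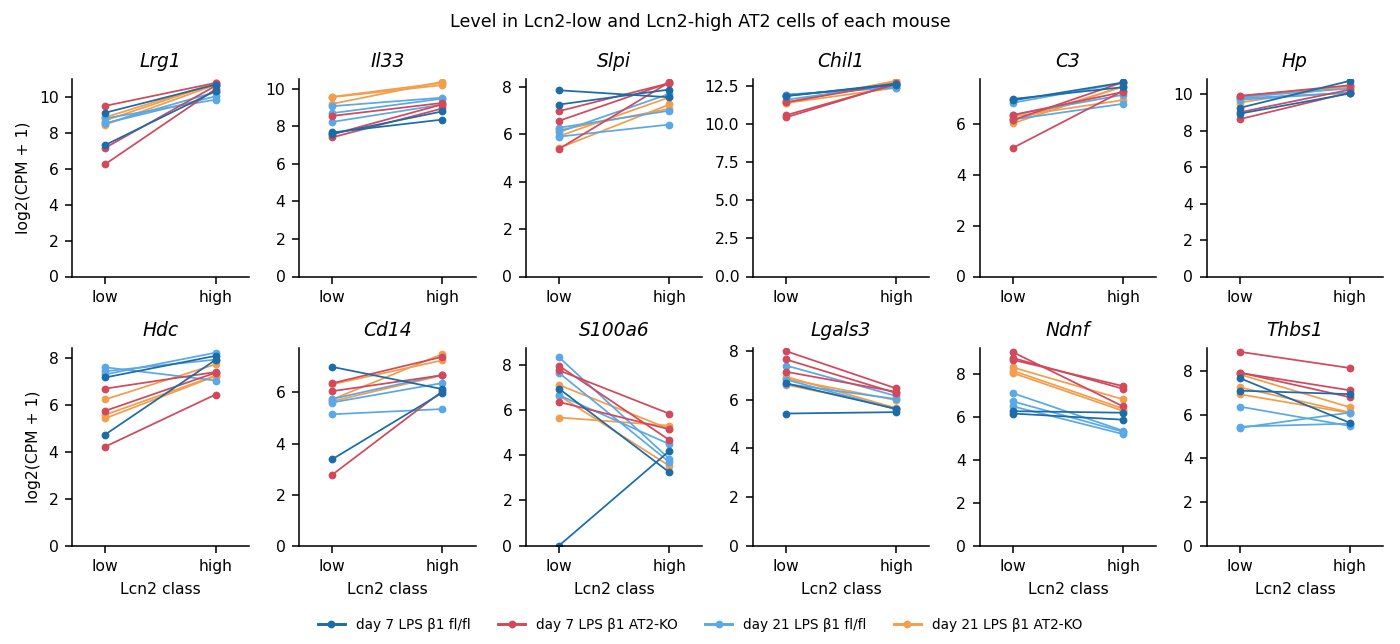
Levels of 12 genes, as log2(CPM + 1), in Lcn2-low and Lcn2-high AT2 cells of the 11 LPS-treated mice with both classes, each line a mouse. Lrg1 and Il33 rose in 11 of 11 mice, and S100a6 was lower in 10 of 11.

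The acute phase list held 21 genes, of which 4 passed the filter on low counts and 17 did not. The 4 were Lrg1, Itih4, Lbp and Hp, and each was higher, where 5.45% of all genes were. Itih4, an inter-alpha-trypsin inhibitor heavy chain of plasma, rose by 1.53 (SE 0.112, edgeR adjusted p = 1.5e-15) from 162 to 420 CPM summed over the mice. Lbp, which hands LPS to CD14, rose by 0.94 (SE 0.112, adjusted p = 5.63e-09). Hp, haptoglobin, which binds free haemoglobin, rose by 0.88 (SE 0.0941, adjusted p = 3.78e-10), from 397 to 967 CPM in Lcn2-low to 1058 to 1714 CPM in Lcn2-high cells, so that the ranges by mouse did not overlap. Each was higher in 11 of 11 mice. The 4 stayed called with the DESeq2 Wald test, with cells thinned to 2000 UMIs and without any mouse or library.

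Most of the secreted defence genes that could be tested rose. Of 21 listed, 12 were tested, 9 were higher and 1, Lgals3, was lower, with a median change of 0.59. Over all genes 5.45% were higher and 4.22% lower. Chil1, a chitinase-like lectin, stood between 5443 and 7520 CPM in Lcn2-high cells of all 12 mice and between 1410 and 3997 in Lcn2-low cells. The classes did not overlap, and the change was 1.28 (SE 0.105, edgeR adjusted p = 6.74e-14). Slpi, a secreted leukocyte protease inhibitor, ranged from 83.6 to 386 CPM in Lcn2-high and 40.6 to 229 CPM in Lcn2-low cells and rose by 1.34 (SE 0.128, adjusted p = 1.12e-11, 10 of 11 mice). The other 7 rises were Lyz1, Lyz2, Ang, Pglyrp1, Cxcl15, Sftpd and Sftpa1. Of these the most abundant were Sftpa1, a surfactant collectin (0.34, SE 0.0638, adjusted p = 0.000165), Lyz2, lysozyme (0.91, SE 0.103, adjusted p = 1.74e-09) and Cxcl15, or lungkine, a neutrophil chemokine of lung epithelium (0.76, SE 0.0811, adjusted p = 3.78e-10). Lyz1 and Lyz2 are near-identical genes, and how the counting divided reads between them is uncertain.

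Of all genes tested 5.45% were higher and 4.22% lower in Lcn2-high cells. Among complement genes 4 were tested and C3, the central component, was the 1 that passed. It had 112 to 202 CPM in Lcn2-high and 32.7 to 127 CPM in Lcn2-low cells and was higher in 11 of 11 mice, by 1.13 (SE 0.114, edgeR adjusted p = 5.77e-11). Of the 4 Toll-like receptor and LPS sensing genes tested, Cd14 and Lbp were higher. Cd14, the LPS co-receptor, rose by 1.23 (SE 0.138, adjusted p = 1.61e-09) in 10 of 11 mice, from 52.5 to 126 CPM summed over the mice. Cd14 and Lyz2 are also macrophage genes, and they were the 2 genes of the macrophage list of 17 that passed the count filter. AT2 cells express Lyz2 themselves. The neutrophil list of 14, with S100a8 and S100a9, had none that passed the filter, and its summed level was 3.95 to 28.8 CPM in Lcn2-high and 0 to 24.1 CPM in Lcn2-low cells. It was higher in the Lcn2-high class in 9 of 11 mice, with a median of 12.9 against 4.78 CPM, and its part in the results was not tested. The 10 endothelial markers summed to 51.5 to 272 CPM in Lcn2-high and 68.8 to 375 CPM in Lcn2-low cells, with 0 of 5 tested called.

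The largest rises by fold were in genes of low level. Retnla, a secreted resistin-like protein of allergic and type 2 inflammation, rose by 2.98 (SE 0.255, edgeR adjusted p = 3.59e-13, 10 of 11 mice), from 0 to 57.3 CPM in Lcn2-low to 32.3 to 715 CPM in Lcn2-high cells. Its 2 highest values, 404 and 715 CPM, were both in day 21 β1 fl/fl mice. Ly6i, of the LY6 family of surface proteins, rose by 2.97 (SE 0.167, adjusted p = 4.91e-20) and had 30.5 to 258 CPM in Lcn2-high against 0 to 50.7 CPM in Lcn2-low cells. The Ly6 genes are similar in sequence, so its counts are uncertain. Dmkn, dermokine, a secreted epithelial protein, rose by 2.38 (SE 0.23, adjusted p = 1.54e-11). The DESeq2 Wald test gave Dmkn no adjusted p and so did not call it. In the LPS libraries, before thinning, 14.9 to 17.5% of Lcn2-high and 3.45 to 10.8% of Lcn2-low cells had a Retnla UMI. For Ly6i it was 20.5 to 39.0 and 5 to 12.1%, and for Dmkn 17.4 to 27.9 and 2.07 to 6.67%. Hdc, the histamine-synthesizing histidine decarboxylase, rose by 1.21, and Cd302, a C-type lectin receptor, by 1.13. Mfsd2a, a transporter of lysophospholipids, rose by 1.07. Each of the 3 had an edgeR adjusted p of 2.7e-06 or lower. The call of Mfsd2a was lost without the day 21 β1 AT2-KO library.

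Some surfactant and lipid genes rose, by less, and most of those tested did not pass. Over all genes 5.45% were higher and 4.22% lower. Of 15 surfactant and lamellar body genes tested, 7 were higher (Sftpa1, Sftpb, Sftpd, Hc, Lyz2, Npc2 and Scd1) and Ctsh was lower, with a median change of 0.16. Of 32 lipid genes, 11 were higher and Chka was lower, with a median of 0.24. They included enzymes of fatty acid synthesis and elongation, namely Fasn (0.55, SE 0.0844, edgeR adjusted p = 3.51e-06), Scd1 (0.61, SE 0.0833, adjusted p = 2.26e-07) and Elovl1 (0.93, SE 0.0798, adjusted p = 3.59e-13). The sterol synthesis enzyme Fdps, the lipid droplet protein Plin2 and the fatty acid binding protein Fabp5 were among the others. Abca3, the lamellar body lipid transporter, changed by 0.16 and did not pass (adjusted p = 0.184). Of 19 genes of the endoplasmic reticulum and integrated stress responses 11 were higher, each by a small step. Among them Hspa5, the chaperone BiP, changed by 0.30 (SE 0.0975, adjusted p = 0.0414). With cells thinned to 2000 UMIs 1 of 14 tested was called, and without the day 21 β1 AT2-KO library 1 of 17. Over all genes, 161 of 1761 and 115 of 5134 were called in these settings, in either direction.

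Changes of antigen presentation and iron genes were as small. The shares over all genes were again 5.45% higher and 4.22% lower. Of 12 MHC class I genes, B2m, H2-K1, H2-D1, H2-Q6 and H2-Q7 were higher, B2m by 0.41 (SE 0.0818, edgeR adjusted p = 0.000364). The call of H2-D1 was lost with cells thinned to 2000 UMIs and in 4 other settings. The H2 genes are a family with shared sequence, and their separate counts are uncertain. Of 8 MHC class II genes 0 passed, and Cd74, the invariant chain, changed by 0.07 (adjusted p = 0.523). Iron genes are of interest beside a siderophore-binding protein. Of 11 tested, 4 were higher: ferritin heavy chain Fth1 (0.33, SE 0.0678, adjusted p = 0.000645), the transferrin receptor Tfrc, transferrin Trf and the ferrireductase Steap2. Of 20 genes of the NRF2 and glutathione list, Gpx1, Prdx1 and Sod2 were higher and Gstm1 lower.

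Genes of the pathways that induce Lcn2 were called in both directions, where 5.45% of all genes were higher and 4.22% lower. Of 18 NF-kB components and feedback genes, Sod2, a mitochondrial superoxide dismutase and NF-kB target, was higher (0.84, SE 0.112, edgeR adjusted p = 1.56e-07). Nfkbia, the inhibitor IkBα that NF-kB induces, was lower (-0.52, SE 0.0954, adjusted p = 0.000128), a call lost without the day 21 β1 AT2-KO library. Of 19 genes of the IL-6 family and STAT3 pathway, the oncostatin M receptor Osmr (0.46, SE 0.151, adjusted p = 0.0435) and the STAT3 target Pim1 (0.74, SE 0.186, adjusted p = 0.00587) were higher, and Junb was lower (-0.47, SE 0.0962, adjusted p = 0.000633), a call lost with cells thinned to 2000 UMIs. Osmr lost its call in 16 of 26 other settings, and Pim1 in 3 of 25, the DESeq2 Wald test among them. The median changes of the 2 lists were -0.20 and -0.03, with 3 of 18 and 8 of 19 genes above 0. Their summed levels were lower in Lcn2-high cells in 10 of 11 mice each, with medians of 1291 against 1776 CPM for the NF-kB list and 2462 against 3188 CPM for the IL-6 and STAT3 list. Of 6 chemokine genes Cxcl15 and Cxcl17 were higher and Cxcl2 was lower, and of 11 interferon-stimulated genes Ifi27l2a and Ifitm3 were higher and Irf1 was lower.

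Genes of AT1 cells and of the transitional Krt8+ state between AT2 and AT1 were lower in Lcn2-high cells over the 11 mice. Of 17 AT1 genes tested 13 were lower and 0 higher, where 4.22% of all genes were lower, and the median change was -0.71. The summed level of the list was lower in Lcn2-high cells in 11 of 11 mice, with a median of 3906 against 4490 CPM. Hopx, an AT1 transcription cofactor, fell by 0.93 (SE 0.178, edgeR adjusted p = 0.000221). The water channel Aqp5 fell by 0.33 (SE 0.0856, adjusted p = 0.00663), a call lost with thinned cells and in 5 other settings, while Ager, the most abundant AT1 gene, changed by -0.16 and did not pass (adjusted p = 0.233). The count was 3 of 12 with cells thinned to 2000 UMIs and 7 of 17 without the day 21 β1 AT2-KO library. Over all genes, 161 of 1761 and 115 of 5134 were called in these settings, in either direction. Within single libraries 9 of 17 AT1 genes, Ager among them, were lower in day 7 β1 AT2-KO cells (median change -1.02), where 0.925% of all genes were. In day 21 β1 AT2-KO cells 4 were lower (-0.53), where 1.46% of all genes were. In β1 fl/fl cells 0 were called, with a median of -0.07 and 6 of 17 genes above 0 at day 7 and a median of -0.38 at day 21. Of all genes only 0.13% at day 7 and 0.0974% at day 21 were lower in these β1 fl/fl cells. The difference between libraries was not tested for the list. Of 17 genes of the Krt8+ state 8 were lower, namely Krt18, Krt19, Krt7, Sfn, Areg, Lgals3, Ctgf and Sprr1a, and Nupr1 was higher. Within single libraries 4 were lower in β1 AT2-KO cells at each day (median changes -0.77 and -0.38), where 0.925 and 1.46% of all genes were. In β1 fl/fl cells Areg alone was lower at day 7 (median -0.16), where 0.13% of all genes were. At day 21 Lgals3 was lower and Gdf15 higher there (median -0.33), where 0.0974% of all genes were lower and 0.179% higher. The difference between libraries was not tested for this list either. The gate had left out cells with a UMI of the transitional gene Cldn4. Areg, a ligand of the EGF receptor, had 119 to 917 CPM in Lcn2-high and 334 to 1156 CPM in Lcn2-low cells and fell by 0.75 (SE 0.111, adjusted p = 1.86e-06). Krt8 itself changed by -0.27 and did not pass (adjusted p = 0.0536).

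S100a6, a calcium-binding protein, had the largest fall. It stood at 8.49 to 56.3 CPM in Lcn2-high cells of all mice. In Lcn2-low cells it stood at 122 and 0 CPM in day 7 β1 fl/fl mice, 248, 216 and 81.2 in day 7 β1 AT2-KO, 199.5, 100.3 and 322 in day 21 β1 fl/fl and 50.03, 137 and 99.0 in day 21 β1 AT2-KO mice. The value of 0 was from the 5 Lcn2-low cells of 1 mouse, and in the other 10 mice Lcn2-high cells were lower. The change was -2.21 (SE 0.196, edgeR adjusted p = 1.02e-12). Ndnf, a secreted factor, was lower in 11 of 11 mice, by -1.46 (SE 0.109, adjusted p = 2.3e-15). Lgals3, galectin-3, was lower in 10 of 11, by -0.98 (SE 0.11, adjusted p = 1.57e-09), and its call was lost with thinned cells. Sec14l3, the kinases Dclk1 and Plk2, the clock gene Nr1d2 and thrombospondin Thbs1 completed the 8 largest falls, at -0.92, -0.85, -0.84, -0.83 and -0.80. The call of Nr1d2 was also lost with thinned cells, and those of Dclk1, Plk2 and Thbs1 without the day 21 β1 AT2-KO library.

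Of 20 alveolar lineage factors 6 were lower (Foxp2, Hopx, Klf5, Sox4, Wwtr1 and Nr1d1) and 0 higher, where 4.22% of all genes were lower. The median change of the list was -0.19, and its summed level was lower in 11 of 11 mice, with a median of 2055 against 2649 CPM. Nkx2-1, the master factor of lung epithelium, changed by -0.08 (edgeR adjusted p = 0.636). Of 5 integrin genes tested Itgav was lower (-0.49, SE 0.13, adjusted p = 0.00928), and Itgb1 changed by -0.02 (adjusted p = 0.933). The call of Itgav was lost in 7 of 26 other settings. Of 17 genes induced by dissociation and immediate early signals 6 were lower, among them Junb, Atf3 and Nr4a1. Of 12 heat shock genes 4 were higher, where 5.45% of all genes were. The part of handling in these was not tested. Of 4 cycling genes and 4 mesenchymal genes tested, 0 passed. The ciliated list shared Sec14l3 with the AT1 list, and the club list shared Hp with the acute phase list. No further gene of either passed.

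**Figure D3:**
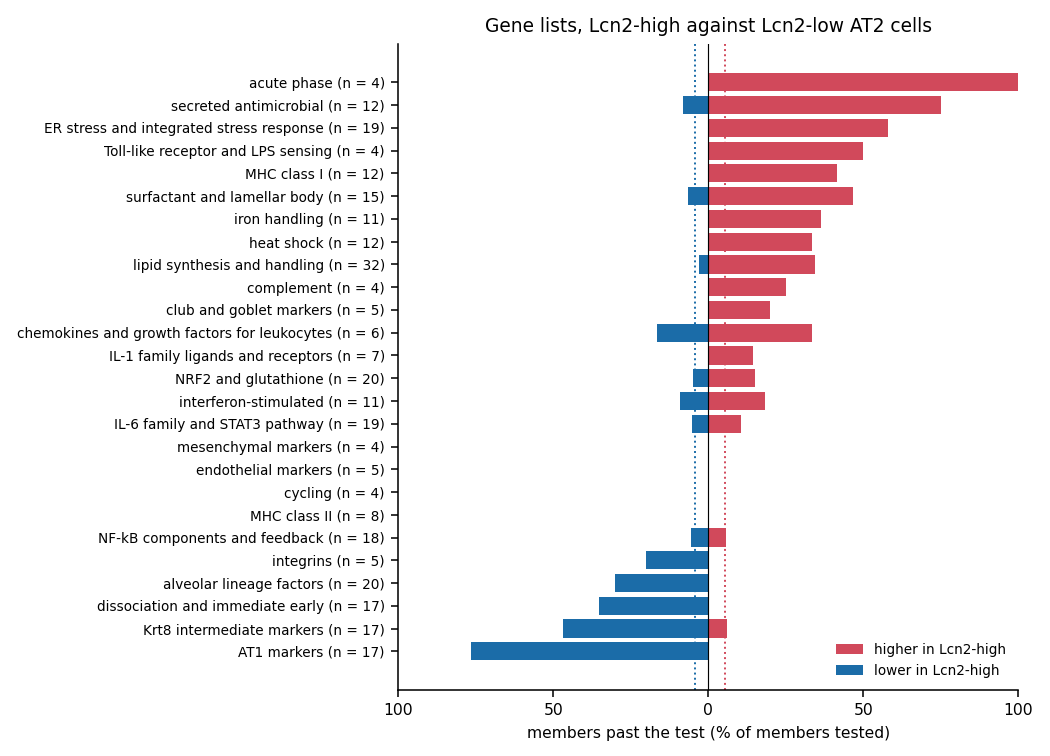
Percentage of the tested genes of each list that were higher or lower in Lcn2-high than in Lcn2-low AT2 cells (edgeR adjusted p at or below 0.05), for lists with at least 4 tested genes, with the percentages over all genes dotted. All 4 tested acute phase genes were higher, and 13 of 17 AT1 genes were lower.

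Lrg1 rose along the Lcn2 range in each LPS library. Cells of the day 21 β1 AT2-KO library with 0 to 5, 5 to 10, 10 to 20, 20 to 40 and at least 40 Lcn2 UMIs per 10000 had 255, 574, 999, 1676 and 2639 CPM of Lrg1. In day 7 β1 AT2-KO cells the order was 153, 384, 446, 1372 and 2214, and in day 21 β1 fl/fl cells it was 269, 487, 756, 1287 and 2096, the last from 12 cells. In day 7 β1 fl/fl cells it was 210 (13 cells), 242, 760, 1227 and 2413, with its largest fold step between 5 to 10 and 10 to 20 per 10000. Slpi in the day 21 β1 AT2-KO library ran from 55.7 to 301 CPM and Chil1 from 2198 to 10542. S100a6 did not run along the range in the same way. It had 229 CPM in the lowest bin of that library and 24.7, 32.4, 17.6 and 8.21 in the others. The fall was likewise between the lowest bin and the next in the other LPS libraries, at 284 and 58.1 CPM in day 7 β1 AT2-KO and 384 and 3.18 in day 21 β1 fl/fl cells. The median UMIs per cell also rose along the bins, from 6910 to 8962 in the day 21 β1 AT2-KO library. These values are descriptions of single libraries.

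**Figure D4:**
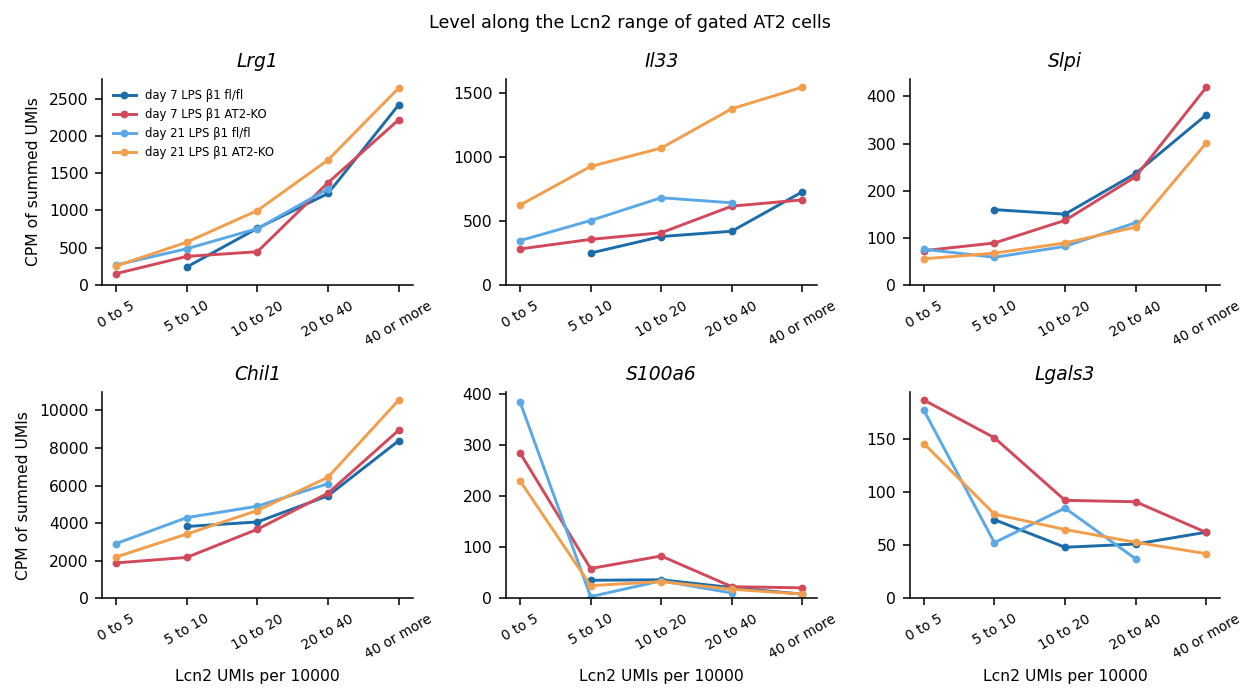
CPM of 6 genes in gated AT2 cells grouped by Lcn2 UMIs per 10000, 1 line for each LPS library, bins with at least 20 cells. Lrg1 rose over the bins of every library, while S100a6 was highest in cells with 0 to 5 Lcn2 UMIs per 10000.

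In PBS-treated β1 AT2-KO lungs the classes had 21 and 16 cells and no test was possible. The values, with exact Poisson 95% intervals for counting error only, were 1083 CPM (955 to 1223) of Lrg1 in Lcn2-high and 491 CPM (368 to 643) in Lcn2-low cells. Il33 did not have this order, at 318 CPM (250 to 398) against 352 CPM (249 to 484). Chil1 stood at 4682 and 2512 CPM, C3 at 159 and 37.1, and Hp at 878 and 640. Ndnf had 54.4 CPM in Lcn2-high and 389 in Lcn2-low cells. The levels of Lrg1 in both classes were within those of single LPS-treated mice, and Il33 of the Lcn2-high class lay below all LPS-treated mice. Whether the PBS and LPS cells differed was not tested.

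Within single libraries the test called fewer of the 6160 genes. It called 14 higher (0.227%) and 8 lower (0.13%) genes in day 7 β1 fl/fl cells, 0.357% in either direction. In day 7 β1 AT2-KO cells it called 83 (1.35%) and 57 (0.925%), together 2.27%. In day 21 β1 fl/fl cells it called 11 (0.179%) and 6 (0.0974%), together 0.276%, and in day 21 β1 AT2-KO cells 115 (1.87%) and 90 (1.46%), together 3.33%. The number of Lcn2-low cells also differed between these libraries. Lrg1, Itih4, Il33 and Chil1 were higher in each of the 4. Whether the change differed between genotypes was tested as an interaction: 6 genes passed at day 7, all higher (0.0974%), and 7 at day 21 (0.114%), 1 of them lower (0.0162%). Neither Lrg1 nor Il33 was among them.

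Lcn2-high cells of the 2 genotypes were then compared directly, over 3 against 3 mice. At day 7, 20 genes were higher (0.38%) and 23 lower (0.437%) in β1 AT2-KO cells of 5259 tested (0.818% in all, edgeR quasi-likelihood test). Lrg1 averaged 1586 ± 188 CPM (SD, n = 3) in β1 AT2-KO and 1715 ± 446 CPM (SD, n = 3) in β1 fl/fl mice, and Il33 averaged 561 ± 57.9 and 507 ± 217 CPM. Neither passed, with changes of -0.15 (SE 0.163, edgeR adjusted p = 0.842) and 0.11 (SE 0.203, adjusted p = 0.92), and 0 of the acute phase genes did. Genes that rose were Abca17 (3.87), Dpm1 (2.17), Tomm6 (1.69), Malt1 (1.60) and Etfb (1.46). The 5 largest falls were Xist (-7.46), Gm8797 (-3.88), Fam71a (-2.09), Bex2 (-1.77) and Acoxl (-1.56). The calls of Bex2 and Acoxl were lost with cells thinned to 2000 UMIs. Dpm1 lost its call in 3 of 15 other settings and Fam71a in 1 of 12, each with a mouse left out. Xist, which is expressed from the inactive X chromosome of female cells, had 107 to 184 CPM in the 3 β1 fl/fl mice and 0 to 1.31 CPM in the 3 β1 AT2-KO mice, and the Y-linked Ddx3y had 0 and 27.7 to 48.5 CPM. By these genes the day 7 β1 fl/fl mice were female and the β1 AT2-KO mice male, so sex and genotype cannot be told apart at day 7. Itgb1 had 252 to 301 CPM in β1 fl/fl and 165 to 227 CPM in β1 AT2-KO mice, a change of -0.52 that did not pass (adjusted p = 0.196). The counts hold no read positions, so it is not known how much of this signal lies in the deleted part of the gene.

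At day 21, 83 genes were higher (1.03%) and 144 lower (1.79%) in β1 AT2-KO Lcn2-high cells of 8040 tested (2.82% in all), and Lrg1 and Il33 were both higher. Il33 averaged 1263 ± 79.98 CPM (SD, n = 3) in β1 AT2-KO and 675 ± 89.9 CPM (SD, n = 3) in β1 fl/fl mice. The mice did not overlap, and the change was 0.79 (SE 0.103, edgeR adjusted p = 4.6e-06). Lrg1 averaged 1718 ± 59.4 and 1076 ± 159.6 CPM, again without overlap, with a change of 0.56 (SE 0.1, adjusted p = 0.000614). The Lrg1 call was lost at a Lcn2 level of 20 per 10000 and with cells thinned to 2000 UMIs, while Il33 kept its call in all 16 other settings. Itih4 rose by 0.70 (SE 0.143, edgeR adjusted p = 0.00292), a call lost without the third mouse of either genotype. Hp (0.16), Slpi (0.12), Chil1 (0.11) and C3 (0.02) did not pass, with adjusted p values of 0.539 and higher. Itgb1 had 338 to 383 CPM in β1 fl/fl and 144 to 164 CPM in β1 AT2-KO mice and fell by 1.39 (SE 0.125, adjusted p = 3.24e-09). Median UMIs per Lcn2-high cell were 8606 in the β1 AT2-KO and 11656 in the β1 fl/fl library.

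**Figure D5:**
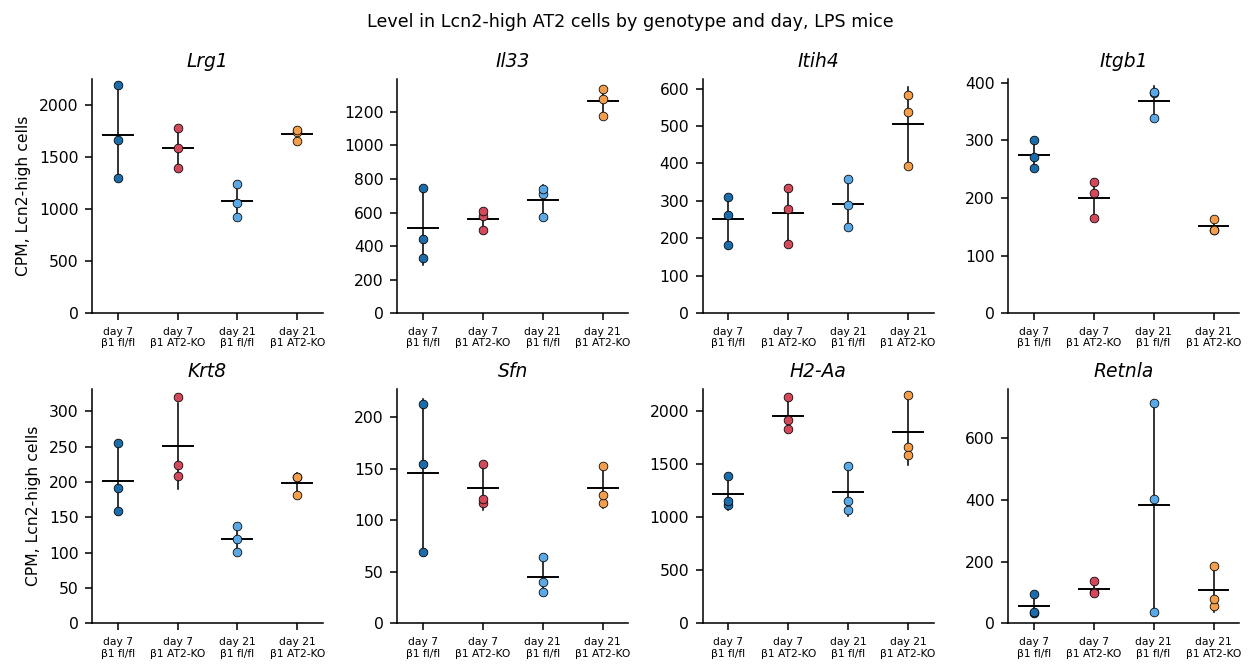
CPM of 8 genes in Lcn2-high AT2 cells of each LPS-treated mouse (dots) with the mean and SD of 3 mice, for the 4 LPS groups. Il33 and Lrg1 of the day 21 β1 AT2-KO mice lay above all day 21 β1 fl/fl mice, and at day 7 the genotypes overlapped.

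Other groups also differed by genotype at day 21. Of all genes, 1.03% were higher and 1.79% lower in β1 AT2-KO cells. Of 16 genes of the Krt8+ state 6 were higher (Krt8, Krt7, Sfn, Areg, Hbegf and Clu) and Nupr1 was lower. Krt8 had 182 to 208 CPM in β1 AT2-KO and 101 to 138 CPM in β1 fl/fl mice, a change of 0.68 (SE 0.157, edgeR adjusted p = 0.00998), and Sfn, stratifin, rose by 1.57 (SE 0.23, adjusted p = 3.95e-05). Of 8 MHC class II genes 4 were higher, Cd74 by 0.44 (SE 0.0863, adjusted p = 0.0018). Of 33 lipid genes 8 were lower, among them Fabp5, which had 440 to 521 CPM against 1228 to 1852 CPM and fell by 1.75 (SE 0.116, adjusted p = 2.96e-12). Of 12 secreted defence genes Lyz1, Lyz2, Ang and Cxcl15 were lower. Retnla, raised in Lcn2-high cells, was lower in β1 AT2-KO mice by -2.07 (SE 0.36, adjusted p = 0.000489), with 35.8, 404 and 715 CPM in β1 fl/fl mice against 186, 56.4 and 80.02 CPM, so that the mice overlapped. Its call was lost without the third mouse of either genotype and with the DESeq2 Wald test.

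The largest changes at day 21 were rises of Abca17 (2.98), Malt1 (1.93), Rcan1 (1.68), Sfn and Ly6i (1.55, edgeR adjusted p = 0.0461) and falls of Bex2 (-3.12), Ccnb1ip1 (-2.11), Retnla, Lyz1 (-1.97) and Fabp5. The call of Ly6i was lost in 9 of 16 other settings and that of Rcan1 in 2, at a Lcn2 level of 20 per 10000 and with thinned cells. Ccnb1ip1 lost its call in 5 of 11, the DESeq2 Wald test among them, and changed sign in 1. Sfn lost its call at a level of 20. Abca17, Malt1, Bex2 and Fabp5 were also called at day 7, in other mice and in the same direction, Fabp5 by -1.27 (SE 0.234, adjusted p = 0.0054). Nupr1, a stress-induced chromatin protein, was lower at both times, by -1.36 (SE 0.166, adjusted p = 5.36e-05) at day 7 and -0.97 (SE 0.124, adjusted p = 3.65e-06) at day 21. Abca17 and Malt1 were present at like levels in the Lcn2-low cells of β1 AT2-KO mice, with 81.2 to 125 and 179.7 to 385 CPM over both days, against 86.0 to 121 and 197 to 289 CPM in their Lcn2-high cells. At day 21 the sexes were mixed. Xist changed by -1.44 in β1 AT2-KO against β1 fl/fl Lcn2-high cells there, so the genotypes may differ in their mix of sexes. Of the β1 AT2-KO mice, mouse 1 had 114 CPM of Xist and the others 3.25 to 9.02, and mouse 1 of β1 fl/fl had both Xist (47.8 CPM) and Ddx3y (31.9 CPM), so this hashtag may not mark a single mouse. The part of this in the comparison was not tested as a cause. Without that mouse 176 genes were called in place of 227, and Il33 and Lrg1 were among them.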

How the data were processed

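Single-cell RNA was captured with a 10x 5′ kit and hashtag antibodies. The authors deposited UMI counts per gene and hashtag in each barcode, made with Cell Ranger 3.1 on mm10 per the labels, and Seurat 4.1.0 is named in the submitters' processing notes. Free RNA correction, the quality filter and doublet removal of the study's methods are not part of these counts. Gm42418 was left out, as there. From the counts, barcodes were gated as described, and a hashtag counted as used above 1% of all hashtag counts, and a cell carried it with at least 10 counts and 4 times the background. Cells with 1 hashtag (1099 Lcn2-high and 479 Lcn2-low) enter values per mouse. The labels do not name the mice, so p-values measure the spread between hashtags. No doublet caller was run. Other-lineage limits of the gate and a setting without cells of more than 1 hashtag stand in for it.

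Counts were summed per mouse and class with at least 5 cells and tested with edgeR 4.0.16 in R 4.3.3 (TMM, default filter, quasi-likelihood test, mouse as block between classes, Benjamini-Hochberg adjustment over all genes tested), and with DESeq2 1.42.0 as an alternative. The scripts were tested on simulated data. The 14 genes of the gate were not tested. Shares per mouse were compared by two-sided exact permutation tests, and intervals are exact binomial or Poisson at 95%, for counting error only. These used python 3.11.15, numpy 2.4.6, scipy 1.17.1 and pandas 2.3.3, and plots matplotlib 3.10.9. Positions are from GENCODE on GRCm38.

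Named are Lcn2, Lrg1, Il33, the 12 largest rises and 8 largest falls between classes among called genes with at least 50 CPM and 1 direction in all libraries, the 5 largest in each direction between genotypes, the 3 most abundant genes of each of 30 lists, and called genes of the acute phase, complement, NF-kB, IL-6 and IL-1 lists. Other genes named were chosen after their values were seen. The members and lists were chosen with earlier results of these data known. Alternatives were other Lcn2 levels, equal depth, filters, normalization, tests and left-out mice and libraries. 2 were chosen after seeing the data, at least 5000 UMIs and at least 10% Sftpc.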

Additional observations from a re-analysis of the deposited data

Results flagged for a closer look

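The change from Lcn2-low to Lcn2-high cells differed between β1 AT2-KO and β1 fl/fl mice for 6 genes at day 7 and 7 genes at day 21, by the interaction term of the edgeR fit (log2 scale, β1 AT2-KO minus β1 fl/fl, adjusted p at or below 0.05).

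At day 7 the difference was 1.35 (SE 0.16, adjusted p = 9.3e-08) for Lyz2, with a change of 1.78 in β1 AT2-KO and 0.43 in β1 fl/fl cells. It was 1.11 for Chil1 (2.04 against 0.93), 0.75 for Cxcl15 (1.36 against 0.61) and 1.04 for Rnase4 (0.92 against -0.12), all of which encode secreted proteins. For Cebpd, a C/EBP transcription factor, it was 1.57 (0.29 against -1.28), and for Lars2, the mitochondrial leucyl-tRNA synthetase, 1.78 (-0.60 against -2.38). The day 7 β1 fl/fl side rests on 2 mice with 28 and 5 Lcn2-low cells.

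At day 21 the difference was 0.64 for Lyz2 (0.97 against 0.34), 1.31 for Hdc (1.74 against 0.44), 0.98 for Apoe (0.87 against -0.11), 1.15 for Apoc1 (1.35 against 0.20) and 1.73 for Scgb1c1, a secretoglobin (0.83 against -0.90). For the chemokine Cxcl2 it was 4.74 (-0.71 against -5.45). Its β1 fl/fl side rests on 1 UMI in Lcn2-high cells and on 1 mouse with 229 CPM in Lcn2-low cells, so the size of the fitted change is no estimate. For Gdf15, a stress-induced cytokine, it was -3.23 (-0.21 against 3.02). The β1 fl/fl mice had 104, 8.61 and 47.7 CPM of Gdf15 in Lcn2-high and 20.6, 0 and 0 CPM in Lcn2-low cells, the latter from 18 UMIs in the library. Each of the 13 lost its call in at least 1 other setting: Lyz2 at day 7 in 1 of 21, at a Lcn2 level of 20 per 10000, and the others in 4 to 14.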

How the results depend on the processing

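Of 44 named genes called between Lcn2-high and Lcn2-low cells, 25 kept their call in every setting, Lrg1, Il33, Chil1, Slpi and C3 among them, and 0 changed direction. Hspa5 (lost in 18), Osmr (16) and Pdia3 (11) lost it most often. The main count was 596 of 6160 genes tested. Separate fits called 534 of 5300 with no replicate block, 599 of 6160 with DESeq2 size factors (291 higher and 308 lower), 385 of 3771 with the DESeq2 Wald test, 268 of 6485 at a Lcn2 level of 5 per 10000, 161 of 1761 with cells thinned to 2000 UMIs, and 385 of 5266 when Lcn2-low cells at 5 to 10 per 10000 were dropped. Leaving out a mouse or library gave 115 to 664, with 115 without the day 21 β1 AT2-KO library, 351 without the day 7 β1 AT2-KO library, and 393 and 397 without mouse 2 or mouse 3 of day 21 β1 AT2-KO. The members were 1012 at a level of 20. Shares by library, in the order of the report, were 93.6, 85.6, 64.9, 75.4 and 85.5% at a level of 5 and 55.9, 49.5, 27.0, 22.8 and 39.8% at 20. With thinned cells those of the β1 fl/fl libraries were 83.6% at day 7 and 61.4% at day 21. The differences of shares per mouse kept their sign without any mouse, at -18.7 to -5.02, 0.28 to 73.0 and 19.1 to 25.8 points.

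The genotype comparison at day 7 called 43 of 5259 genes and gave 22 of 4850 with the DESeq2 Wald test, 106 of 14152 with no filter on low counts, 15 of 1299 with thinned cells, and 26 to 55 without a mouse (26 without mouse 2 of β1 AT2-KO). At day 21 it called 227 of 8040 and gave 48 of 6282 at a level of 20, 42 of 3396 with thinned cells, and 87 to 226 without a mouse (87 without mouse 3 of β1 AT2-KO and 90 without mouse 3 of β1 fl/fl). Ccnb1ip1 ranged from -3.06 to 1.77 there, with the positive value without mouse 1 of β1 fl/fl (adjusted p = 0.322). The differences of the change numbered 6 at day 7, and 3, 1 and 3 at levels of 5 and 20 and with thinned cells, 2 to 8 without a mouse. At day 21 they numbered 7, then 3 at a level of 5 and 1 to 8 without a mouse. They were 0 with the DESeq2 Wald test, at a level of 20 and with thinned cells, where 144, 262 and 78 genes had an unadjusted p at or below 0.05. At day 7, 2 were found without mouse 2 of β1 AT2-KO, and at day 21, 1 without mouse 3 of β1 fl/fl. The Lars2 difference was -0.94 at a level of 5 (adjusted p = 0.937) and that of Gdf15 1.00 at a level of 20 (adjusted p = 1). The cause of each of these was not tested, beyond the fewer cells or UMIs that thinning, other levels and left-out libraries leave. Of 21 acute phase genes, 17 did not pass the count filter and were not tested.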
